A study of Mus musculus with 10 samples.

Results

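The genes described here encode proteins by which tumour cells hold back immune cells. They are 9 genes chosen by name: Cd274, Cd276, Cd80, Pvr, Cd47, Nt5e, Lgals1, Lgals3 and Lgals9. Each was read from the array row whose platform annotation names that gene alone, and each had 1 such row, among 30142 genes with a row. The signals came from 4T1, an established mouse mammary carcinoma line, of which 50000 cells were grown for 5 days inside collagen gels before total RNA was hybridised to Affymetrix MTA 1.0 arrays. The low density group (LD, 5 arrays) had 2 mg collagen per mL and the high density group (HD, 5 arrays) 3.5 mg per mL. Both groups shared the cell line, RPMI medium with 10% fetal bovine serum and a change of medium on day 3. The labels name no other cell type in the gels, so the values stand for RNA, not protein, of 1 carcinoma line cultured without the immune cells these ligands act on. The labels do not say whether a group's 5 samples were grown as separate cultures. The p-values therefore rest on a spread that may be technical.

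These ligands act through receptors on T cells, natural killer cells and macrophages. PD-L1, encoded by Cd274, engages PD-1 and dampens T cell signalling, and interferon gamma is its best known inducer in tumour cells. CD155, encoded by Pvr, is bound by the inhibitory receptors TIGIT and CD96 and by the activating receptor DNAM-1, while CD47 binds SIRP-alpha on macrophages and restrains phagocytosis. CD73, encoded by Nt5e, turns extracellular AMP into adenosine, which suppresses T cells, and galectins bind glycans on immune cell surfaces.

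Promoter sequences are shown for the gene with the largest change among the 8 tested (Cd274), for the gene with a match to an interferon regulatory factor motif (Lgals9), and for the gene whose rise kept its sign under every array scaling tried (Lgals3). They were taken from RefSeq (GRCm38.p6) and cover the 250 bases before a transcript start, in the direction of the gene (the build behind the array rows is not known here). The windows lie at chr19:29367188-29367437 on the plus strand for Cd274, chr11:78984925-78985174 on the minus strand for Lgals9 and chr14:47373610-47373859 on the plus strand for Lgals3. Capitals mark motif matches.
Cd274: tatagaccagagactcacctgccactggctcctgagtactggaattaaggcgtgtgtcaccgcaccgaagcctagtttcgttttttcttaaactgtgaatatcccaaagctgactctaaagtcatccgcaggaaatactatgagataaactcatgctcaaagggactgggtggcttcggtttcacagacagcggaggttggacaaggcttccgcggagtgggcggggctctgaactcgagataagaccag
Lgals9: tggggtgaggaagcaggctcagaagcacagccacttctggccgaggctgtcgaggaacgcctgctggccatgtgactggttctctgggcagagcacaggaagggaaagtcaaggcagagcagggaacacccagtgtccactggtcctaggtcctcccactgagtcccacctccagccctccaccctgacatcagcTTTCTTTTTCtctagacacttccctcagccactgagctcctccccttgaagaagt
Lgals3: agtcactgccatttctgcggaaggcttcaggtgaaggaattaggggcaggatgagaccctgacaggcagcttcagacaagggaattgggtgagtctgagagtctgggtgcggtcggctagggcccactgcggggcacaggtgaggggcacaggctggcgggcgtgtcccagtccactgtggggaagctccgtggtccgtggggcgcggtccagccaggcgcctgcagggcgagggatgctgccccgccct

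The 3 motifs searched, on both strands, were GAAA, any 2 bases, GAAA (interferon regulatory factors), ACGTG (hypoxia-inducible factors) and TGANTCA (AP-1). RefSeq windows were at hand for 7 of the 9 genes, with a pair of overlapping windows for Cd47; Pvr and Lgals1 were not matched. The Lgals9 window held 1 match to the interferon regulatory factor motif, on the minus strand at bases 55 to 46 before the start, and 2.98% of 32851 RefSeq windows of this length held at least 1. The Cd47 windows shared 1 ACGTG match, at bases 76 to 72 before the nearer start (16.6% of windows), and the Cd80 window had 1 TGANTCA match (6.75%). The windows of Cd274, Cd276, Nt5e and Lgals3 contained none of these letters, which says nothing of sites outside them.

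All levels below are log2 signals made by the authors with RMA, and a fold is a ratio of RMA signals. Genes entered the test when their mean passed a floor of 5.24, the median over every row of the table. Of all 30142 genes with a row, 17800 passed it. The floor lies below the negative control medians given next, so a gene above it can still be at negative control level. Control features moved with the groups. Negative control rows had a median signal of 5.67 ± 0.052 on LD arrays (SD, n = 5) and 5.42 ± 0.12 on HD arrays. Background rows had 3.47 ± 0.055 and 3.63 ± 0.057, and positive control rows 9.21 ± 0.011 and 9.28 ± 0.045. Each difference had a two-sided p of 0.0079 by exact permutation, which is the minimum possible with groups of 5. Changes are therefore also given after a line through the negative and positive control medians was used to rescale every array, called the control scaling, which moved the median change of all genes from 0.06 to 0.13. Its anchors bracket Cd274, Pvr and Lgals3 and lie below the other 5 genes tested. A further scaling on the negative control and background rows, called the background scaling, moved it to 0.70, and its anchors lie below all 8 ligand genes tested, so it extrapolates to their levels. Of all 17800 genes tested, 15580 were higher in HD and 95 lower under the background scaling. The control scaling gave 8785 higher and 3396 lower. List counts under these scalings below are to be read beside those totals.

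Markers of the line were checked. All 10 listed mammary epithelial markers lay above the floor, with mean levels over the list of 10.15 to 10.20 on the LD arrays and 9.84 to 9.97 on the HD arrays. Of them, 6 fell in HD, beside 19.5% of all genes tested. The falls were led by Cldn4 (-1.09), Krt19 (-0.76) and Epcam (-0.60), a tight junction claudin, a keratin and an epithelial adhesion molecule. Under the background scaling these became 0.04, 0.32 and 0.73. Of 13 leukocyte markers with a row, 11 lay below the floor, among them the pan-leukocyte gene Ptprc at 3.09 in LD and 3.14 in HD. The other two were Cd3e (5.29 and 5.45) and Cd68, a lysosomal protein of macrophages that other cells also make, at 8.57 in LD and 7.83 in HD. The mean over the leukocyte list was 4.69 to 4.77 on LD arrays and 4.71 to 4.76 on HD arrays. Of 6 fibroblast markers with a row, 4 lay above the floor: Col1a1 (6.71 in LD and 6.80 in HD), Col1a2 (5.93 and 6.06), Col3a1 (5.65 and 5.80) and Pdgfrb (5.44 and 5.55). Dcn and Lum lay below it, as did 4 of 5 endothelial markers, Pecam1, Cdh5, Kdr and Tek. The fibroblast and endothelial list means were 5.05 to 5.22 and 4.55 to 4.67 in LD against 5.12 to 5.36 and 4.65 to 4.73 in HD. Cd3e, Col3a1, Pdgfrb and Tie1 (5.63 and 5.80) lay near the negative control medians of 5.67 in LD and 5.42 in HD. The differences of Col3a1 and Tie1 were 0.15 and 0.17, and 0.38 and 0.40 under the control scaling. That scaling ties rows at this level to the negative control median, which was lower in HD. The Col3a1 call was lost in 6 of 10 omissions of 1 array, without the floor and after median centring. The part of these differences in the results was not tested.

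As deposited, 6 of the 8 genes tested differed between the densities, 4 lower and 2 higher in HD. Cd274, Pvr, Nt5e and Lgals9 fell and Lgals1 and Lgals3 rose (turned for Pvr, Nt5e and Lgals9 under the background scaling and for Lgals1 under the control scaling), while Cd47 and Cd276 did not pass the test and Cd80 lay below the floor. The changes were small. None reached 1.5-fold. In limma with Benjamini-Hochberg adjustment over 17800 genes, 50.9% of all genes passed in either direction, 19.5% as lower and 31.4% as higher in HD, against 75% of the 8 ligand genes, 50% as lower and 25% as higher. With 8 genes, these shares describe the genes and are no test. The shares of all genes also stand beside the list counts below, and those counts are no tests either. The groups did not overlap for 5 of the 8 genes (3 lower, 2 higher), and for 36.7% of all genes (15.1% lower, 21.6% higher). Past 1.5-fold the background was 2.34%. The median change over the 8 genes was -0.10, beside 0.06 over all genes. The direction was the same under the deposited values, quantile normalization, median centring, the control scaling and the background scaling for 2 of the 8 genes, Cd274 (lower) and Lgals3 (higher); the others turned under at least 1 of them, as given below.

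**Figure D1:**
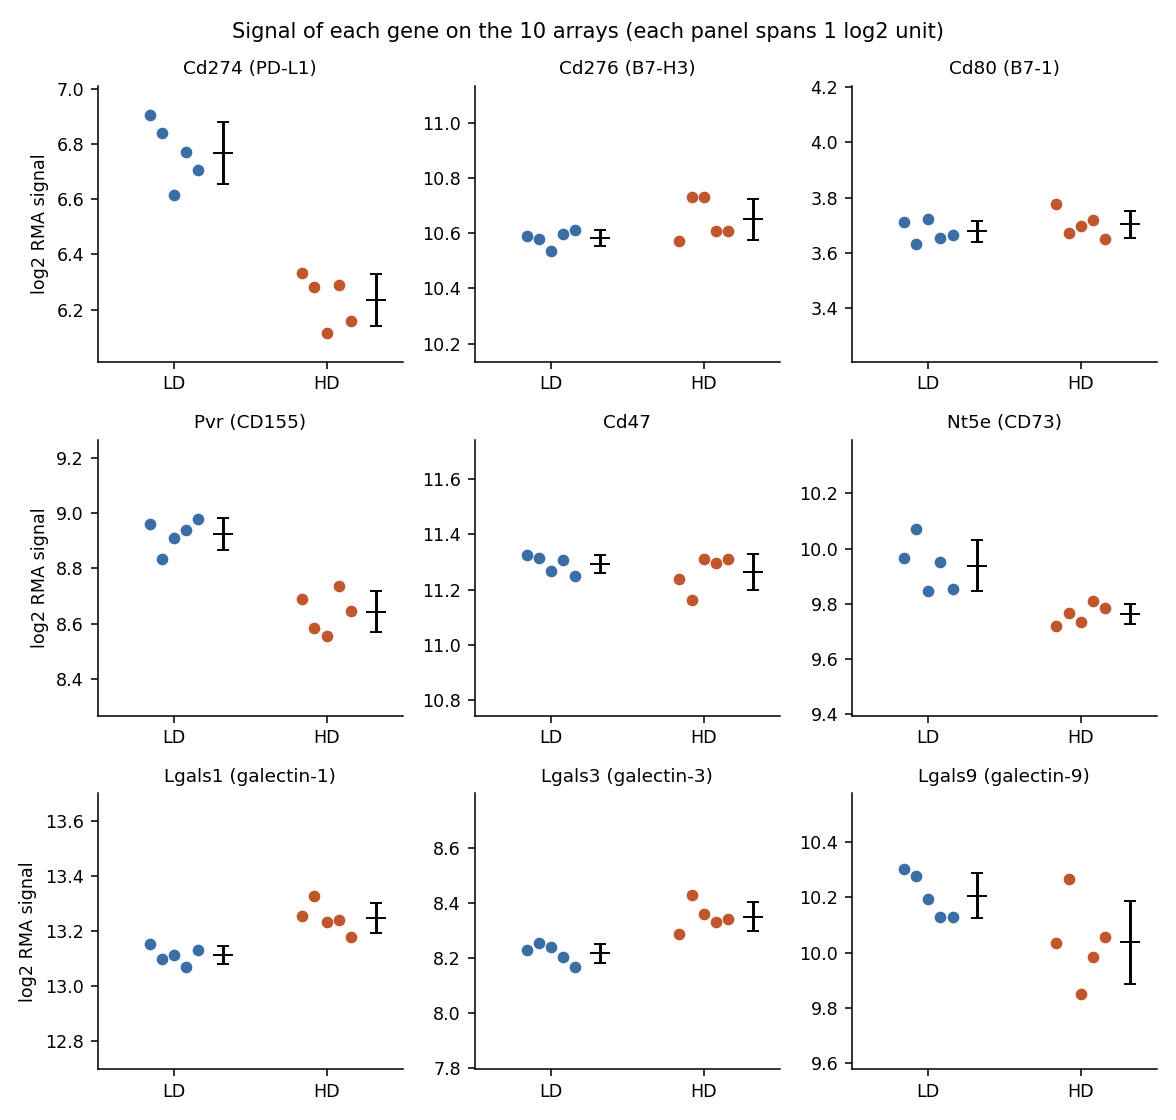
Log2 RMA signal (vertical axis) of the 9 genes on the 5 LD arrays (blue) and 5 HD arrays (orange); black bars give the mean and SD of each group, and every panel spans the same range of 1 log2 unit. As deposited, the HD points of Cd274, Pvr and Nt5e lie wholly below the LD points and those of Lgals1 and Lgals3 wholly above them (turned for Pvr and Nt5e under the background scaling and for Lgals1 under the control scaling), while the groups overlap for Cd276, Cd80, Cd47 and Lgals9.

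**Figure D2:**
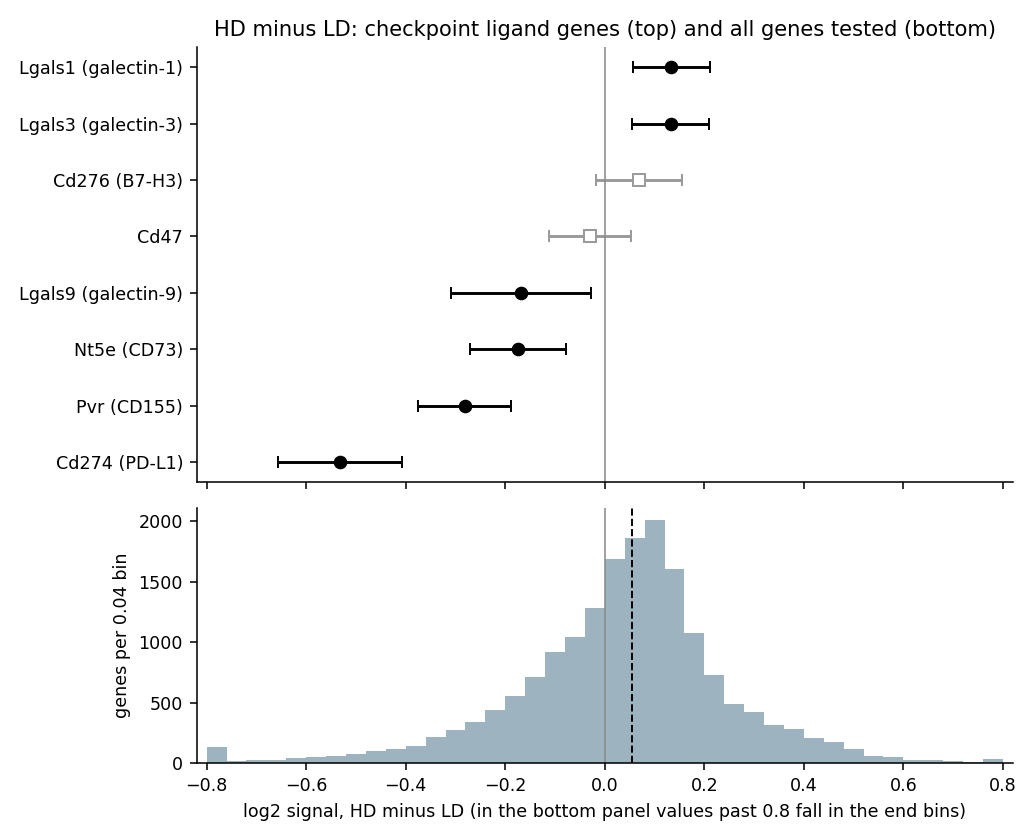
Top: log2 change, HD minus LD, of the 8 tested genes as deposited, with 95% intervals from limma; filled circles passed the adjusted threshold of 0.05 and open squares did not. Bottom: the same change for all 17800 genes tested, with the median of 0.06 as a dashed line. Cd274 lies at -0.53 and the other 7 genes between -0.28 and 0.13; other scalings of the arrays turn the sign of all but Cd274 and Lgals3.

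Cd274 had the largest change of the ligand genes. Its LD signals were 6.91, 6.84, 6.61, 6.77 and 6.71, and its HD signals were 6.33, 6.28, 6.12, 6.29 and 6.16. Every HD array lay below every LD array, with a gap of 0.28 between the groups. The mean fell from 6.77 ± 0.113 (SD, n = 5) to 6.24 ± 0.0934, 1.45-fold lower, at a log2 change of -0.53 with an SE of 0.0581 (limma adjusted p = 5.9e-06), and 3.17% of the genes tested had a larger absolute change. The negative control median on the HD arrays was 5.42. The change was -0.45 after quantile normalization and -0.37 under the control scaling (limma adjusted p = 1.3e-04), and -0.07 under the background scaling, where it did not pass (limma adjusted p = 0.58).

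Genes known to control PD-L1 moved both ways. Of 22 tested genes of this list, 9 fell and 6 rose, with a median of -0.08, beside 19.5% and 31.4% of all genes. Irf9 and Stat2, subunits of the transcription factor of the type I interferon response, fell by 0.77 and 0.70. Irf1, the interferon-induced activator of Cd274, fell from 9.31 ± 0.117 (SD, n = 5) to 8.62 ± 0.0876, 1.62-fold (limma adjusted p = 6.1e-07), and its dimmer second row differed by -0.26. Ifngr1, a chain of the interferon gamma receptor, fell by 0.38, while Socs1, a feedback inhibitor of JAK kinases, rose by 0.34. The other genes of the list that rose were Cops5 (0.34), Hif1a (0.31), Myc (0.20), Cmtm4 (0.16) and Ptpn2 (0.13). Jak1 (-0.06), Stat3 (-0.01) and Socs3 (0.06) were among those that did not pass. All genes named in this paragraph but Irf9, Stat2 and Ndrg1 were named after their values were seen. The largest change in the list was in Ndrg1, a hypoxia-induced gene, at -1.77. Under the control scaling 13 genes were lower and 5 higher. Under the background scaling none was lower and 18 were higher, beside 95 lower and 15580 higher of all 17800 genes tested. Irf1, Ifngr1 and Stat2 stood at 0.30, 0.53 and 0.03 there. Irf9 (-0.21, limma adjusted p = 0.20) and Ndrg1 (-0.49, limma adjusted p = 0.055) no longer passed.

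Cd276 encodes B7-H3, a B7 protein found on many carcinomas that is mostly described as inhibitory for T cells. Its LD signals were 10.59, 10.58, 10.54, 10.60 and 10.61, and its HD signals were 10.57, 10.73, 10.73, 10.61 and 10.61. HD replicates 2 and 3 were the high values and the groups overlapped. The log2 change was 0.07 (95% interval -0.02 to 0.15, limma adjusted p = 0.17), so a change larger than 0.15 upwards lies outside the interval as deposited. Under the control scaling it was -0.12 (limma adjusted p = 0.028) and under the background scaling 1.44 (limma adjusted p = 7.7e-04), so it has no settled direction.

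Cd80, the ligand of CD28 and CTLA-4 that antigen-presenting cells carry, had signals of 3.71, 3.63, 3.72, 3.65 and 3.67 in LD and 3.78, 3.67, 3.70, 3.72 and 3.65 in HD. All 10 values lay below the floor and near the median of the background rows, so no fold or test is given.

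The wider B7 family list held 5 tested genes, of which 3 fell and none rose (median -0.14), beside 19.5% and 31.4% of all genes. Beside Cd274 these were Vsir, which encodes the inhibitory protein VISTA, at -0.21 (limma adjusted p = 0.0024, and -0.12 after quantile normalization) and Icosl, the ligand of ICOS, at -0.14 (limma adjusted p = 0.0082). Icosl turned to 0.03 under the control scaling and 0.32 under the background scaling, and did not pass after quantile normalization (-0.05); Vsir stood at -0.06 and 0.30 under those 2 control-based scalings and passed in neither. Cd86 and Pdcd1lg2, which encodes PD-L2, lay below the floor with Cd80.

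Pvr had the next largest change. Its LD signals were 8.96, 8.83, 8.91, 8.94 and 8.98, and its HD signals were 8.69, 8.59, 8.56, 8.74 and 8.65. The lowest LD value lay 0.10 above the highest HD value. The mean fell from 8.93 ± 0.0573 (SD, n = 5) to 8.64 ± 0.0742, 1.22-fold lower, at a log2 change of -0.28 with an SE of 0.0434 (limma adjusted p = 1.1e-04), and 17.0% of all genes tested had a larger absolute change. It was -0.31 under the control scaling (limma adjusted p = 1.9e-04) but 0.68 under the background scaling (limma adjusted p = 0.0042).

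Relatives of Pvr did not share one direction. Of 7 tested nectins and nectin-like adhesion genes, 2 rose and 2 fell (median 0.11), beside 31.4% and 19.5% of all genes. Nectin1 rose by 0.32 from 7.97 ± 0.0786 (SD, n = 5) to 8.29 ± 0.0819 (limma adjusted p = 9.8e-05), and Cadm4 rose by 0.19. Nectin2, a second ligand of TIGIT and DNAM-1, fell by 0.14 (limma adjusted p = 0.035) with overlapping groups, and turned to 0.72 under the background scaling. Its call was lost after quantile normalization, under the control scaling, without the filter, and without any 1 of LD replicates 1, 3, 4 and 5 and HD replicates 1, 2 and 5; over all 10 omissions its log2 change was -0.17 to -0.10. After quantile normalization 4 of the list were higher and 1 lower, under the control scaling 5 and 1, and under the background scaling all 7 were higher. All genes gave 7634 higher and 2956 lower after quantile normalization.

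Rows of immune cell receptors mostly lay below the floor (9 of 14 with a row, Cd226 and Cd96 among them), which 17800 of all 30142 genes passed. Tigit, the T cell receptor for CD155, stood out from them. Its LD signals were 8.72, 8.67, 8.76, 8.65 and 8.64, and its HD signals were 9.19, 9.45, 9.34, 9.47 and 9.38. The groups did not overlap, and the mean rose 1.60-fold (log2 change 0.68, limma adjusted p = 2.7e-07). Havcr2, which encodes the galectin-9 receptor TIM-3, rose by 0.57, with group means of 7.34 ± 0.139 (SD, n = 5) and 7.91 ± 0.205 (limma adjusted p = 1.2e-04). Pdcd1, which encodes PD-1, was 5.97 and 6.17 (limma adjusted p = 0.049), a call lost without any 1 of LD replicates 1, 2 and 5 and HD replicates 3, 4 and 5, and also after median centring, without the filter and with trended and robust variances; over all 10 omissions its log2 change was 0.15 to 0.26, and under the control scaling it was 0.40. Whether these rows measure the named transcripts in carcinoma cells was not tested; Ptprc, Cd3g, Cd4 and Cd8a lay below the floor on the same arrays.

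Cd47 did not differ beyond its spread as deposited. Its LD signals were 11.33, 11.31, 11.27, 11.31 and 11.25, and its HD signals were 11.24, 11.16, 11.31, 11.30 and 11.31. HD replicates 1 and 2 were the low values, and the other HD arrays lay within the LD range. The log2 change was -0.03 (95% interval -0.11 to 0.05, limma adjusted p = 0.54). It was -0.27 under the control scaling (limma adjusted p = 0.0027) and 1.48 under the background scaling (limma adjusted p = 6.8e-04), so it too has no settled direction.

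Genes that modify CD47 or share its ligands moved both ways, with 5 of 9 lower and 3 higher (median -0.10), and 3 lower without LD replicate 2. Of all genes, 19.5% were lower and 31.4% higher. Lrp1, the phagocytic receptor for calreticulin, fell by 0.48 and Thbs1, the CD47 ligand thrombospondin 1, fell by 0.23, but under the background scaling they stood at 0.78 and 1.155; Thbs1 was -0.42 under the control scaling. Calr, calreticulin itself, which signals uptake when it reaches the cell surface, rose by 0.38 from 10.48 ± 0.0353 (SD, n = 5) to 10.86 ± 0.0666 (limma adjusted p = 3.9e-06), and by 0.19 under the control scaling (limma adjusted p = 0.0061). Qpctl, the enzyme that modifies CD47 for binding SIRP-alpha, rose by 0.17, and by 0.30 under the control scaling. Cd24a, a further surface inhibitor of macrophages, rose by 0.20 and turned to -0.10 under the control scaling. Qpctl and Cd24a were named after their values were seen. Under the background scaling 8 of the 9 genes were higher and none lower.

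Nt5e fell by a small amount. Its LD signals were 9.97, 10.07, 9.85, 9.95 and 9.85, and its HD signals were 9.72, 9.77, 9.73, 9.81 and 9.78. The groups were separated by 0.04. The mean fell from 9.94 ± 0.0929 (SD, n = 5) to 9.76 ± 0.0366, 1.13-fold lower, at a log2 change of -0.17 with an SE of 0.045 (limma adjusted p = 0.0053). It stood at -0.29 under the control scaling (limma adjusted p = 4.7e-04) and at 1.02 under the background scaling (limma adjusted p = 0.0017).

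Around Nt5e, more genes rose than fell in HD, as over all genes (31.4% higher and 19.5% lower). Of 9 tested genes of ATP and adenosine handling, 6 rose and 2 fell, one of the latter being Nt5e (median 0.17). Slc29a2, an equilibrative nucleoside transporter, rose by 0.52 from 8.36 ± 0.0631 (SD, n = 5) to 8.88 ± 0.113 (limma adjusted p = 3.6e-06). Ada, which deaminates adenosine, had LD signals of 6.20 to 6.35 and HD signals of 6.63 to 6.91 and rose 1.41-fold (log2 change 0.49, limma adjusted p = 3.2e-06). Adk, which phosphorylates adenosine, rose 1.35-fold (log2 change 0.44, limma adjusted p = 4.2e-06). These 3 genes were higher under each of the other scalings as well, at 0.50, 0.66 and 0.39 under the control scaling. Entpd1, which encodes CD39, the ectoenzyme upstream of CD73, lay below the floor at 4.15 in LD and 4.19 in HD. The list had 7 higher and 2 lower under the control scaling and 9 higher under the background scaling.

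The galectins went in both directions. Lgals1, galectin-1, which induces apoptosis of activated T cells, had LD signals of 13.15, 13.10, 13.11, 13.07 and 13.13 and HD signals of 13.26, 13.33, 13.23, 13.24 and 13.18. The groups were separated by 0.03. From 13.11 ± 0.0316 (SD, n = 5) the mean went to 13.25 ± 0.0533, a rise of 0.13 ± 0.0361 SE (1.10-fold, limma adjusted p = 0.0073) that turned to -0.27 under the control scaling (limma adjusted p = 0.0040) and stood at 2.06 under the background scaling.

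Lgals3, galectin-3, a glycan-binding protein of tumour cells and macrophages, had LD signals of 8.23, 8.25, 8.24, 8.20 and 8.17 and HD signals of 8.29, 8.43, 8.36, 8.33 and 8.34. All HD arrays lay above all LD arrays, by 0.03 at the closest. The rise was 0.13 ± 0.036 SE (1.10-fold, limma adjusted p = 0.0077). It was 0.15 under the control scaling (limma adjusted p = 0.0091) and 1.00 under the background scaling, and it passed the test under each of the 5 scalings. Less the median change of all genes, the rise was 0.08 as deposited, 0.01 under the control scaling and 0.30 under the background scaling. Under the control scaling Lgals3 thus moved about as the median gene did.

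Lgals9, galectin-9, a ligand of TIM-3 that interferon induces, had LD signals of 10.30, 10.28, 10.19, 10.13 and 10.13 and HD signals of 10.03, 10.27, 9.85, 9.98 and 10.06. HD replicate 2 lay within the LD range, so the groups overlapped. The mean fell by 0.17 ± 0.0654 SE (1.12-fold, limma adjusted p = 0.045), near the threshold. The call was lost when any of 7 of the 10 arrays was left out (LD replicates 1, 2 and 3 and HD replicates 1, 3, 4 and 5), at log2 changes of -0.12 to -0.23 over all 10 omissions and limma adjusted p of 0.0042 to 0.11, and without the filter on dim rows (0.077). It was -0.31 under the control scaling (limma adjusted p = 7.1e-04) and 1.08 under the background scaling (limma adjusted p = 0.0010).

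Over the whole galectin list, 3 of 8 tested genes rose and 2 fell, beside 31.4% and 19.5% of all genes. The list median was 0.07, near the 0.06 of all genes. Lgals3bp, the secreted binding partner of galectin-3, fell by 0.54 from 9.95 ± 0.0961 (SD, n = 5) to 9.41 ± 0.113 (limma adjusted p = 5.4e-06), so the binding protein and Lgals3 moved in opposite directions as deposited; under the background scaling Lgals3bp stood at 0.61. Lgalsl, a galectin-related gene, rose by 0.20. Lgals7, Lgals8 and Lgals12 did not pass, and Lgals2 and Lgals4 lay below the floor. All 8 genes tested were higher under the background scaling, and 3 were lower under the control scaling.

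Enzymes of glycan branching and sialylation also divided, with 6 of 12 higher and 4 lower (median 0.08), beside 31.4% and 19.5% of all genes. B4galt5, a galactosyltransferase, and St3gal4, a sialyltransferase, rose by 0.45 each (limma adjusted p = 1.2e-06 and 7.8e-07), St3gal4 by 0.27 under the control scaling. St3gal1, which sialylates O-glycans, fell by 0.45 (limma adjusted p = 8.2e-06) and turned to 0.44 under the background scaling, where all 12 were higher.

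The list of other ligands for immune cell receptors also held the receptors Fas and Cd40 and the enzymes Ptges and Ptgs2, so its counts are not of ligands alone. Of its 10 tested genes, 6 fell and 2 rose (median -0.21), beside 19.5% and 31.4% of all genes. Ptges, a prostaglandin E synthase, had the largest fall, 0.71 from 8.30 ± 0.081 (SD, n = 5) to 7.59 ± 0.103 (limma adjusted p = 2.7e-07), while Ptgs2 (cyclooxygenase 2), the enzyme before it in prostaglandin synthesis, named after its value was seen, rose by 0.42, and by 0.16 under the control scaling (limma adjusted p = 0.038). Tnfsf9, the ligand of the T cell costimulator 4-1BB, fell by 0.50 and Tnfrsf14, the ligand of BTLA, by 0.45. Under the background scaling Ptges, Tnfsf9 and Tnfrsf14 stood at 0.07, 0.22 and 0.23, 4 of the list were higher and none lower. The other gene that rose was Fas, whose 2 rows disagreed. The brighter, by its identifier on chromosome 17, changed by 0.18 (0.0062 under the control scaling) and the dimmer, on chromosome 19 where RefSeq places the gene, by -0.78, so the direction of Fas is uncertain; it was named after its values were seen.

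**Figure D3:**
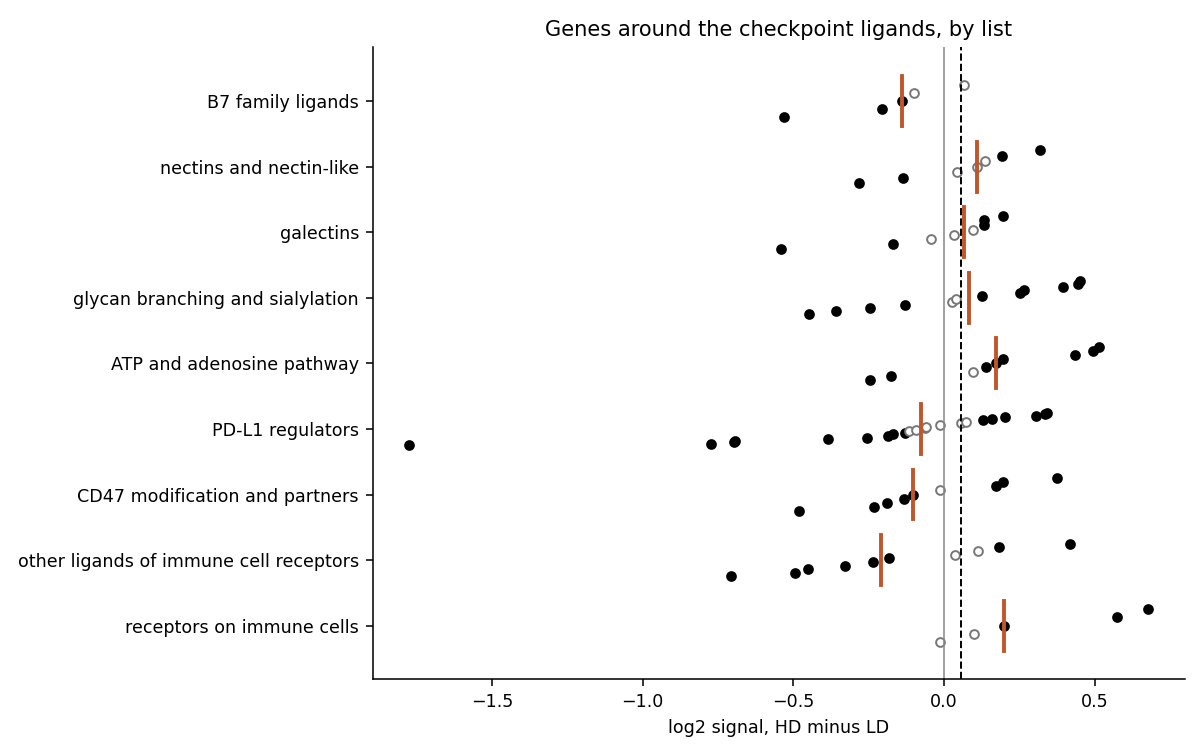
Log2 change, HD minus LD, of each tested gene in the 9 lists around the ligands, as deposited; filled points passed limma's adjusted threshold of 0.05, open points did not, orange bars are list medians and the dashed line is the median of all genes (0.06). List medians run from -0.21 (other ligands) to 0.20 (receptors), and the point at -1.77 is Ndrg1. Counts under the other scalings are given in the text for each list.

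Within groups, the ligand genes did not vary as one set. After each value was reduced by its group mean, the correlation over the 10 arrays for the 28 pairs of tested genes ran from -0.72 (Cd47 with Lgals1) to 0.60 (Lgals3 with Lgals9). Cd274 correlated at 0.56 with Nt5e, 0.53 with Lgals9 and 0.26 with Pvr. These values rest on 10 arrays that share their scaling, and they are descriptions. Among 13020 annotated genes, the closest to Cd274 were Taz (tafazzin, r = 0.97) and Rhbdl2 (0.945), to Pvr Psg17 (0.93) and AI506816 (0.92), and to Nt5e Sesn3 and Mr1 (0.94 each). The closest to Lgals1 were Snora73b (0.985) and Rcan1 (0.97), to Lgals3 Stat6 (0.91) and Anxa8 (0.905), and to Lgals9 Dapp1 (0.97) and Cd68 (0.965). Each was picked as a highest value among 13020 over 10 arrays, a choice that itself yields high r, and none was tested.

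**Figure D4:**
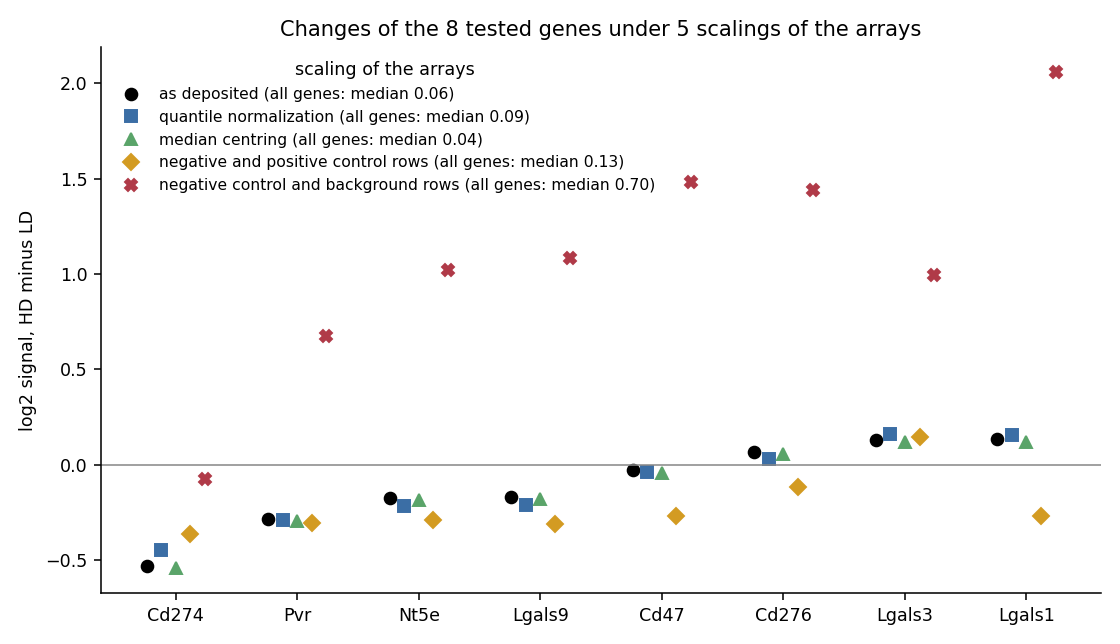
Log2 change, HD minus LD, of the 8 tested genes as deposited and under 4 other scalings of the arrays, which the symbols name with the median change of all genes under each. Cd274 lies below 0 and Lgals3 above 0 under all 5. The background scaling (crosses) puts the other 6 above 0. The control scaling (diamonds) puts all genes but Lgals3 below 0, and of these Cd276 and Lgals1 lay above 0 as deposited.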

How the data were processed

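Gene expression was measured on 10 one-colour arrays, 5 per collagen density. The deposited table holds log2 values that came from RMA, per the submitters' processing notes; its software, annotation and genome build are not known here. The log2 scale was taken from the values. RMA subtracts a modelled background, equalises arrays and summarises probes, which compresses folds. The table had 72688 rows, 6732 of them control features; 30604 rows named 1 gene, 2146 several. Gene IDs of 22818 rows matched RefSeq, updating 827 symbols. A gene was represented by its brightest row and tested if that row's mean passed the median of all rows (17800 genes). The test of HD against LD used limma 3.58.1 under R 4.3.3 (lmFit, eBayes, two-sided, no covariates), with Benjamini-Hochberg adjustment over all genes and a threshold of 0.05; the fit was tested on simulated data. Arrays limit the precision; scanner files and batches were not used here. No pair of arrays was identical.

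The members, gene lists and tests were chosen with earlier results of these data known. Named were all 9 members, the 3 called genes of each list with the largest change, genes a result turns on, and, for each called member, the 2 annotated genes with the highest correlation of within-group deviations.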

Additional observations from a re-analysis of the deposited data

How the results depend on the processing

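The number of arrays and signal over background limit these results: Cd274 lies near the negative control rows. The replicate number as a block changed no ligand's call (4 lower and 2 higher, Cd274 at -0.53, limma adjusted p = 3.8e-06) and gave 3 nectins higher in place of 2, with 5654 genes higher and 3404 lower in all; deviations of same-numbered arrays correlated at 0.19, -0.091, -0.036, 0.22 and -0.025, so no pairing was assumed. The 10 arrays left out in turn moved the log2 change of Lgals9 over -0.23 to -0.12, and the lower counts of the galectin and nectin lists to 1 to 2 and of the CD47 list to 3 to 5; no other count moved by over 1.5 times and no other ligand lost its call.

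Under the background scaling all genes gave 15580 higher and 95 lower, and the ligands 7 higher and 0 lower. There Cd274 was -0.073, Cd47 1.48, Cd276 1.44, Nt5e 1.02, Pvr 0.68 and Lgals9 1.08. List counts were 2 higher and 0 lower (B7), 7 and 0 (nectins), 8 and 0 (galectins), 12 and 0 (glycans), 9 and 0 (adenosine), 18 and 0 (PD-L1 regulators), 8 and 0 (CD47), 4 and 0 (other ligands) and 5 higher (receptors). Reversed were Vsir (0.30), Icosl (0.32), Lgals3bp (0.61), St3gal1 (0.44), Stat2 (0.027), Lrp1 (0.78), Thbs1 (1.155), Ptges (0.074), Tnfsf9 (0.22), Tnfrsf14 (0.23), Cd68 (0.083), Cldn4 (0.038), Krt19 (0.32), Epcam (0.73), Irf1 (0.30), Ifngr1 (0.53) and Nectin2 (0.72). The control scaling, chosen after seeing the data, gave 8785 genes higher, and 1 ligand higher and 7 lower, with Cd47 at -0.27 and Cd276, Lgals1, Icosl and Cd24a reversed to -0.12, -0.27, 0.032 and -0.10; nectins had 5 higher and 1 lower and other ligands 1 higher.

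Quantile normalization gave 4 nectins higher and 1 lower and 3 CD47 genes lower. Without the filter Lgals9 (-0.17) lost its call, nectins and galectins had 1 lower each and other ligands 4 higher; with each gene's dimmest row, also without the filter, Lgals9 (-0.17), nectins (1) and galectins (1) were the same, Lgals9 having a single row. The stricter floor of 6.96, with fewer genes tested, left out Cd274, Vsir and Icosl, all 3 B7 genes called lower, and so gave 0 lower B7 genes. It also left out Ada, Entpd5 and Panx1 and gave 3 higher adenosine genes. Averaged rows gave 1 higher among other ligands and Fas at -0.30, and dimmest rows without the filter Fas at -0.78. With a 1.5-fold threshold, 138 genes were higher and 278 lower and 0 ligands passed (Cd274 at -0.53, Pvr -0.28, Nt5e -0.17, Lgals9 -0.17, Lgals1 0.13, Lgals3 0.13); every list count was 0 except PD-L1 regulators (4 lower), other ligands (1 lower) and receptors (1 higher). The cause of these changes was not tested except where fewer genes were tested.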
